A study of Gallus gallus with 8 samples.

Results

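Myocardin (MYOCD), MEF2C and HAND2 are 3 regulators of heart muscle, and their levels were followed through 8 RNA libraries of the early chick embryo. They were chosen by gene name: of the 17778 genes listed in each deposited table, the 3 rows named MYOCD, MEF2C and HAND2 were taken, and each name stood once. The libraries are pools of dissected Gallus gallus tissue, sequenced after selection of polyadenylated RNA, with 1 library per tissue and no replicate of any of them. From the heart came the developing sinoatrial node (called the node here), which is the pacemaker region, the left atrium, the apex of the common ventricle, and the atrioventricular junction at Hamburger-Hamilton (HH) stage 17 to 18. For node, atrium and ventricle no stage is given in the sources used here. From the lateral plate mesoderm at HH 8 came the pacemaker progenitor field, the anterior plate, the left side and the posterior plate. The embryos carried no stated allele, transgene or treatment, and how many embryos went into a pool is not given in the sources used here.

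MYOCD is a coactivator without DNA binding of its own. It binds the serum response factor SRF and drives genes of heart and smooth muscle whose promoters hold the SRF site, the CArG box. MEF2C is a DNA-binding factor of the MADS-box family that acts with GATA and T-box factors in heart muscle precursors. HAND2 is a basic helix-loop-helix factor of the lateral plate, the heart, the limb bud and the pharyngeal arches, and mice without it form a hypoplastic right ventricle. In mice, ISL1 and GATA factors activate Mef2c in the anterior heart field.

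Levels are CPM, counts relative to the library's total, after scaling between libraries with TMM factors, and the brackets give exact 95% Poisson intervals, which cover counting error only. Counts assigned to genes ran from 10258697 in the ventricle to 17189803 in the atrium, so 1 count was worth 0.0541 to 0.109 CPM. With 1 library per tissue there is no replicate error, no p-value is given, and every difference below is one between libraries. A pair of libraries was called different for a gene when the log2 ratio of CPM + 1 was at least 1 in size, at least 5 CPM was reached in the higher of the pair, and 1 lay outside the 95% interval of the ratio. Comparisons with several references needed this against each of them. Muscle markers were used to check heart labels against mesoderm labels only. The 8 measured genes summed to 21431 to 26359 CPM in the heart libraries and to 706 to 1236 CPM in the mesoderm. Labels within the heart and within the mesoderm were not checked by these sums.

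The 3 genes behaved differently. MYOCD was highest in the node and nearly absent from 3 of the 4 mesoderm libraries. MEF2C was highest in the atrium, with a smaller span. HAND2 was abundant in all 8 libraries, with 1.29-fold between its lowest and highest heart library and 1.75-fold between its lowest and highest mesoderm library. In the mesoderm all 3 were lowest in the posterior plate and highest in the anterior plate, except that HAND2 in plain CPM was higher in the left plate, at 313 against 299.7.

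**Figure D1:**
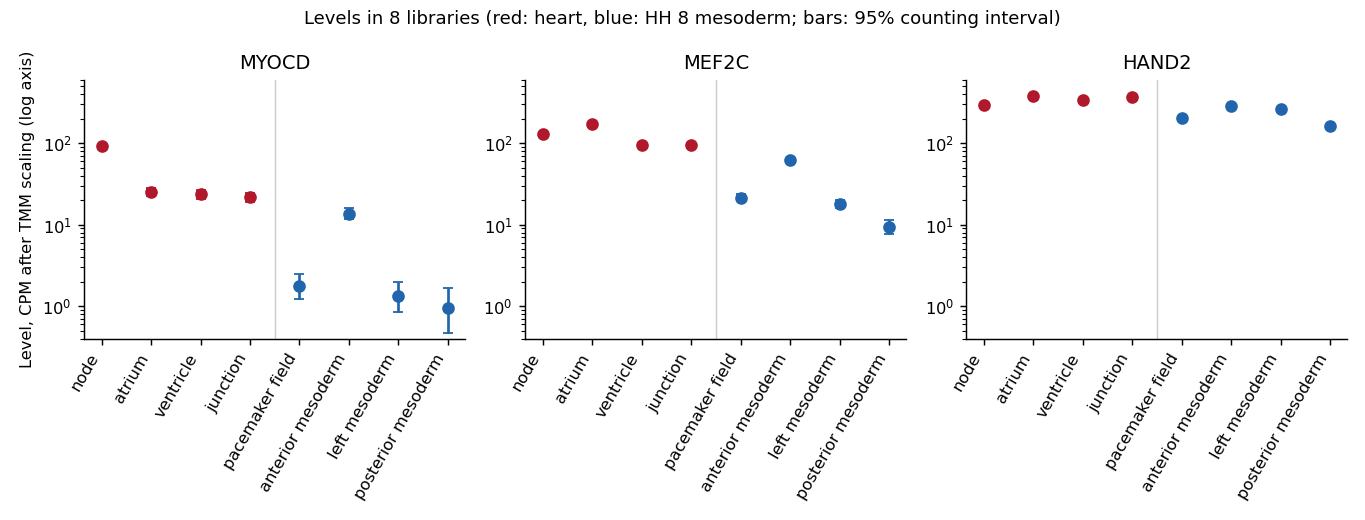
Levels of MYOCD, MEF2C and HAND2 in the 8 libraries, as CPM after scaling on a log axis; each point is 1 library, red for heart and blue for HH 8 mesoderm, and bars are 95% counting intervals, smaller than the points where not seen. MYOCD ran from 0.944 to 93.3 CPM, MEF2C from 9.35 to 172.7 CPM and HAND2 from 162.1 to 383.9 CPM.

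MYOCD stood at 93.3 CPM in the node (88.3 to 98.5, 1299 counts), 25.2 CPM in the atrium (22.7 to 27.9), 23.7 CPM in the ventricle (20.6 to 27.0) and 21.7 CPM in the junction (19.1 to 24.6). The node thus held the high level, and the other 3 heart regions could not be ordered, since the ratios between neighbours in that order were 1.06 (0.898 to 1.26) and 1.09 (0.904 to 1.31). In the mesoderm MYOCD was at 13.7 CPM in the anterior plate (11.7 to 16.04, 157 counts), 1.78 CPM in the pacemaker field (1.23 to 2.51, 33 counts), 1.33 CPM in the left plate (0.844 to 1.997, 23 counts) and 0.944 CPM in the posterior plate (0.471 to 1.69, 11 counts). Only the anterior plate stood out there. The ratios of field to left plate, 1.34 (0.764 to 2.39), and of left to posterior plate, 1.41 (0.660 to 3.20), held 1, so the order of those 3 libraries was not resolved at this depth. In pooled tissue, fewer cells of a type and less RNA per cell cannot be told apart.

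MEF2C stood at 172.7 CPM in the atrium (166.0 to 179.5), 128.2 CPM in the node (122.3 to 134.2), 95.4 CPM in the ventricle (89.2 to 101.9) and 94.4 CPM in the junction (88.9 to 100.2). The node lay between atrium and ventricle, and ventricle and junction differed by less than counting error (ratio 1.01, 0.923 to 1.11). In the mesoderm it was at 61.9 CPM in the anterior plate (57.4 to 66.6), 21.3 CPM in the pacemaker field (19.3 to 23.5), 17.8 CPM in the left plate (15.8 to 19.9) and 9.35 CPM in the posterior plate (7.68 to 11.3). All ratios of neighbours in this mesoderm order had intervals above 1, the closest being field to left plate at 1.20-fold (1.03 to 1.40).

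HAND2 stood at 383.9 CPM in the atrium (373.9 to 394.1), 369.4 CPM in the junction (358.4 to 380.7), 339.1 CPM in the ventricle (327.3 to 351.2) and 297.9 CPM in the node (288.9 to 307.1). The node was the lowest heart library, the reverse of MYOCD, and atrium and junction were not separated (1.04-fold, 0.998 to 1.08). In the mesoderm HAND2 was at 283.8 CPM in the anterior plate (274.1 to 293.7), 263.7 CPM in the left plate (256.1 to 271.5), 204.2 CPM in the pacemaker field (197.7 to 210.8) and 162.1 CPM in the posterior plate (154.8 to 169.5). The left plate came before the pacemaker field here, whereas for MEF2C the field came before the left plate. These counting intervals are narrow because HAND2 had 1889 to 5594 counts per library, and differences of this size between single libraries have no replicate check.

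Over all 28 pairs of libraries MYOCD was called in 19, MEF2C in 18 and HAND2 in 3. Among the 6 heart pairs MYOCD was called in 3, each with the node on the higher side, at 3.71-fold over the atrium (3.30 to 4.17), 3.95-fold over the ventricle (3.42 to 4.57) and 4.30-fold over the junction (3.75 to 4.94). Neither MEF2C nor HAND2 was called in any heart pair. Over all expressed genes, meaning those at 5 CPM or more in at least 1 library compared, the share called was 7.53% between node and atrium, 11.7% between node and ventricle and 7.2% between node and junction. It was 6.82% between atrium and junction and 11.2% between ventricle and junction. Among the 6 mesoderm pairs MYOCD was called in 3, MEF2C in 4 and HAND2 in none. The share of all expressed genes called was 0.542% to 1.94% in the mesoderm pairs. In the pairs of a heart with a mesoderm library it was 21.8% to 29.4%.

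**Figure D2:**
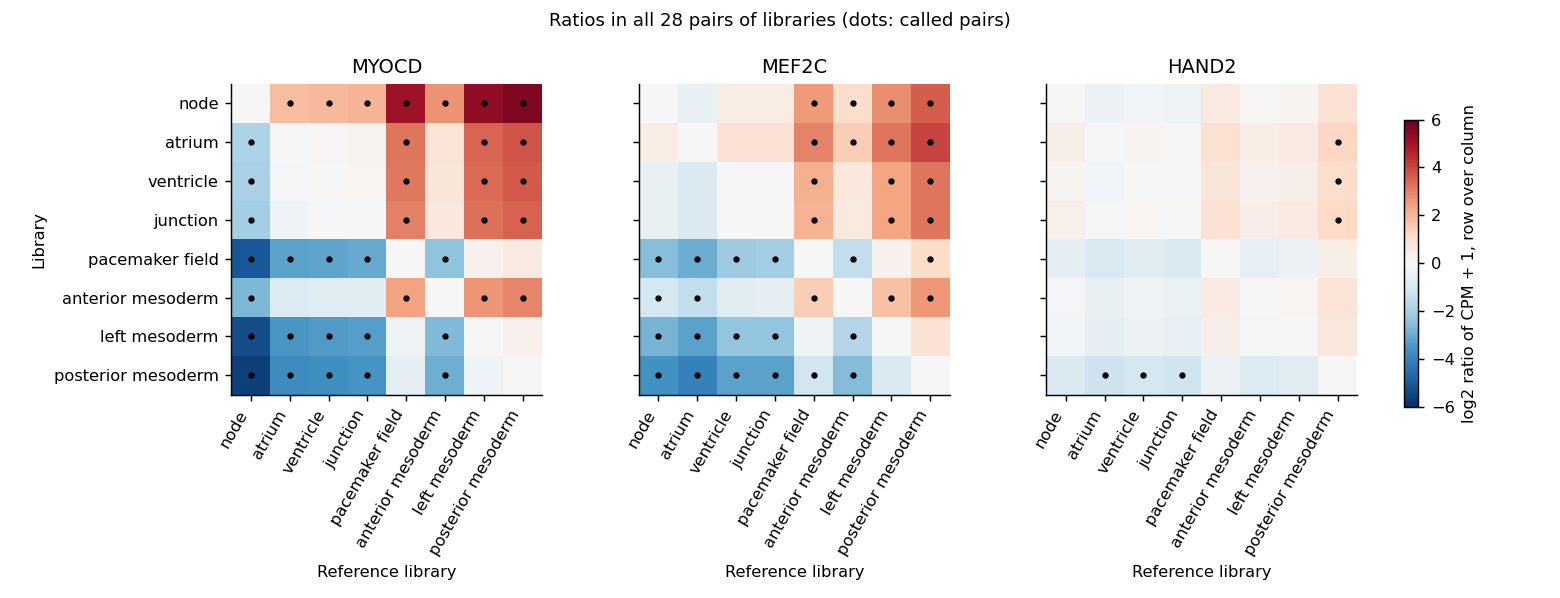
Ratios of MYOCD, MEF2C and HAND2 in all pairs of libraries, coloured by the log2 ratio of CPM + 1 of the row over the column, with a dot on each called pair. The node row of MYOCD has dots against all 7 other libraries, and HAND2 has dots in 3 pairs, each with the posterior mesoderm.

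The series' design text names the right inflow region, the atria and the ventricle, so the node was first set beside both chambers. MYOCD was called higher in the node than in both, as were 304 of 9787 expressed genes (3.11% higher, with 1.46% lower and 4.57% in all). Set against the chamber mean, its log2 ratio of 1.89 ranked 131 of 9787, against a median of -0.03 over all expressed genes. MEF2C lay between the chambers (log2 ratio -0.06) and HAND2 was 1.14-fold below the ventricle (1.09 to 1.19), and neither was called. Scaling by total counts in place of TMM factors gave 414 genes higher and 95 lower in place of 304 and 143 and shifted the median of all genes by 0.18 on the log2 scale. MYOCD, taken relative to that median, was at 1.92 under both scalings. Dropping ventricle or atrium as a reference could not undo the call of MYOCD, since the rule held against each of them.

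The partners and paralogues of MYOCD differed less between node and chambers. SRF, the DNA-binding partner, had its highest level, 100.5 CPM, in the node, with 78.5 for atrium, 71.3 for ventricle and 69.7 for junction. MKL1 and MKL2, the paralogues of myocardin that respond to actin dynamics, were at 37.3 and 29.7 CPM in the node, 22.0 and 21.6 CPM in the atrium, and 24.96 and 32.2 CPM in the ventricle. MKL1 was at 41.3 CPM in the junction, above its node level, and MKL2 at 26.9 CPM. ELK4, of the ternary complex factors, which compete with myocardin for SRF, had its lowest heart level in the node at 7.97 CPM, with 8.25 in the junction, 11.7 in the atrium and 15.4 in the ventricle. None of these 4 was called between node and chambers. MEF2B, MEF2D, HAND1, MAMSTR, the E proteins TCF3, TCF4 and TCF12 and the TWIST factors were not matched by name and are not analysed here.

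Of 12 measured smooth-muscle and contractile genes known for SRF sites, 3 were called higher in the node than in both chambers (3.11% of all expressed genes) and none lower, with a median log2 ratio of 0.40 against -0.03 over all genes. ACTA2, smooth-muscle actin, reached 773 CPM in the node, with 303 for atrium, 131 for ventricle and 199.8 for junction, which put it 2.55-fold over the atrium (2.46 to 2.64). MYLK, the myosin light chain kinase, was at 70.0 CPM against 13.04 and 5.97 in the chambers and 39.2 in the junction, 5.37-fold over the atrium (4.59 to 6.31). MYH11, smooth-muscle myosin, was at 19.1 CPM against 6.04 and 6.40, and its junction level of 20.6 CPM was close to that of the node. TAGLN, another smooth-muscle marker with SRF sites, was highest in the ventricle at 74.5 CPM, against 48.4 in the node and 27.4 in the atrium. ACTC1, cardiac actin, was at 8240 CPM in the node and 7809 and 9614 in the chambers and was not called. Actin genes are close copies of each other, so the split of 36-base reads among ACTA2, ACTC1, ACTA1 and ACTG2 is uncertain.

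Markers listed for other cell types also differed between these libraries, and whether those cells gave the levels was not tested. Of 4 expressed epicardial markers, 4 were called higher in the node than in both chambers, as were 3.11% of all expressed genes. Summed over 6 measured markers, the epicardial level reached 679 CPM in the node, with 273 for atrium, 196 for ventricle and 629 for junction, with UPK3B at 0 counts in node and ventricle and UPK1B at 0 in the ventricle. The sum of 11 endothelial markers came to 344 CPM in the node, with 376 for atrium, 397 for ventricle and 226 for junction, with none at 0 in any library. The sum of 5 endoderm and liver-type markers was 1500 CPM in the node against 636 and 98.4 in the chambers, nearly all of it APOA1, and the part of these cell types in the node's MYOCD level was not tested.

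Between the chambers, where 4.3% of 9441 expressed genes were called with the atrium higher and 3.09% with the atrium lower (7.39% in all), none of the 3 was called. MEF2C came nearest at 1.81-fold over the ventricle (1.68 to 1.96), which is past 1.5-fold and short of 2-fold. HAND2 was 1.13-fold (1.08 to 1.18) and MYOCD 1.06-fold (0.898 to 1.26) over the ventricle. MEF2A, the paralogue of MEF2C, was even across the heart, at 190 CPM in the atrium, 206 in the ventricle, 228 in the node and 219 in the junction. In the same libraries HDAC9, a class IIa histone deacetylase that binds and represses MEF2 factors, was at 43.2 against 95.8 CPM, 2.22-fold lower in the atrium (2.002 to 2.46). HDAC9 was as low in the junction, at 42.5 CPM, and at 71.6 CPM in the node, and a link to MEF2C was not tested. HDAC4 and HDAC7, of the same class, were at 18.9 and 16.4 CPM in the atrium against 18.7 and 16.8 CPM in the ventricle. HOPX, a small homeodomain protein that restrains SRF, and FHL2, a LIM protein that interacts with SRF, were also called lower in the atrium, at 2.40 against 6.08 CPM and 80.5 against 397 CPM. In junction and node HOPX was at 5.99 and 5.17 CPM, and FHL2 at 84.5 and 315 CPM. The call of HOPX rested on 35 against 56 counts, and its log2 ratio of -1.06 only just passed the threshold. Of the 10 measured genes of that list 3 were thus lower in the atrium and 1 higher, CSRP2.

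Of 10 expressed muscle genes known to depend on MEF2 factors, 1 was called higher in the atrium than in the ventricle, MYOZ1 at 19.6 against 6.29 CPM, and none lower. Over all expressed genes 4.3% were called higher and 3.09% lower. The list's median log2 ratio was 0.06 against -0.03 over all genes. XIRP1, an actin-binding protein of cell junctions in heart muscle, had 276 CPM in the atrium, 279 in the ventricle, 282 in the node and 239 in the junction. In the node 2 of the 10 were called lower than in both chambers (1.46% of all expressed genes), the Z-disc genes MYOZ2, at 2.44 CPM against 55.0 and 39.8, and LDB3, at 134 CPM against 318 and 379. The list's median in the node was -0.66 while MEF2C itself was at -0.06. Erythroid markers, 7 measured, summed to 36881 CPM in the atrium, 17459 in the ventricle, 14052 in the junction and 19775 in the node, and their part in the MEF2C values was not tested.

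In the junction no member was called against the other 3 heart regions, where 0.827% of 9916 expressed genes were higher and 0.514% lower (1.34% in all). MYOCD and MEF2C were lowest there, though within counting error of the ventricle, and HAND2 lay between atrium and ventricle. The log2 ratio of MYOCD to the mean of the others was -1.09, or -0.16 without the node. TBX2 and TBX3 are T-box repressors of the atrioventricular canal, and TBX3 is also a HAND2 target in the mouse limb bud. In the junction they were at 39.1 and 95.1 CPM. They were at 18.1 and 29.8 CPM in the atrium and 1.63 and 7.16 CPM in the ventricle. The node held 7.26 CPM of TBX2 and 82.8 CPM of TBX3. TBX2 was called higher in the junction than in the other 3 regions and TBX3 was not. HAND2 was at 369.4 CPM in the junction, 383.9 in the atrium, 339.1 in the ventricle and 297.9 in the node. A link of HAND2 to TBX2 or TBX3 was not tested. ID2, an inhibitor of helix-loop-helix factors and the only one of its family measured, had 151 CPM in the junction, 156 in the atrium, 96.7 in the ventricle and 91.2 in the node.

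**Figure D3:**
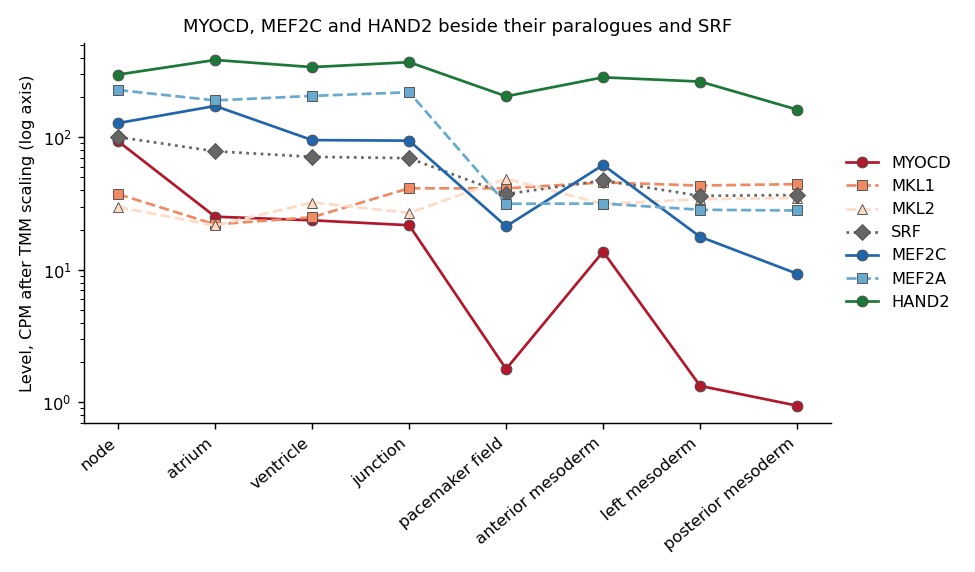
Levels of MYOCD, MEF2C and HAND2 beside the myocardin paralogues MKL1 and MKL2, the partner SRF and the paralogue MEF2A, as CPM after scaling on a log axis for each of the 8 libraries; lines join the libraries of 1 gene only to guide the eye. MKL1, MKL2 and SRF stay between 21.6 and 100.5 CPM in all libraries, while MYOCD spans 0.944 to 93.3 CPM. CPM is not divided by gene length, so heights of different genes are not comparable.

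Heart and mesoderm differ in both tissue and stage, which cannot be told apart. Every heart library was above every mesoderm library for MYOCD and MEF2C. How many of all expressed genes had such an order was not counted, so it is not shown to be particular to them. For HAND2 the lowest heart library, the node, was 1.05-fold (1.002 to 1.10) above the highest mesoderm library, and this order depended on scaling, since in plain CPM the heart ran from 295 to 325 and the mesoderm from 176 to 313. None of the 3 met the rule of 2-fold in all 16 pairs, which 5.62% of 10454 expressed genes met as higher and 2.53% as lower (8.15% in all). In counts, 587 were higher and 265 lower, or 433 and 472 by total counts, which moved the median of all genes by -0.31 on the log2 scale. The log2 ratios of the means were 2.95 for MYOCD, 2.11 for MEF2C and 0.60 for HAND2, against a median of 0.02. Taken relative to the median of all genes, they were 2.93, 2.09 and 0.58, and 3.06, 2.12 and 0.57 by total counts. With the node left out, the log2 ratios of the means were 2.17 for MYOCD, 2.09 for MEF2C and 0.67 for HAND2. The larger value of MYOCD thus came mostly from the node.

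What kept MYOCD and MEF2C below the threshold was the anterior plate. The junction, the lowest heart library for both, was 1.58-fold above it for MYOCD (1.29 to 1.95) and 1.53-fold above it for MEF2C (1.39 to 1.68). Without the anterior mesoderm both were called, with log2 ratios of 4.16 and 2.85. The ventricle was likewise close to the anterior plate, at 1.72-fold for MYOCD (1.40 to 2.13), 1.54-fold for MEF2C (1.39 to 1.70) and 1.19-fold for HAND2 (1.14 to 1.26). Of the pairs between heart and mesoderm, MYOCD was called in 13 of 16, MEF2C in 14 and HAND2 in 3. Over all expressed genes, the share called against the field, anterior, left and posterior libraries was 23.9%, 24.2%, 23.7% and 25.5% for the node and 25.3%, 24.8%, 25.1% and 25.8% for the atrium. In the same order it was 26.7%, 28.4%, 27.9% and 29.4% for the ventricle and 23.0%, 21.8%, 23.0% and 23.3% for the junction. HAND2 was called where the atrium (2.37-fold, 2.25 to 2.50), the junction (2.28-fold, 2.16 to 2.41) and the ventricle (2.09-fold, 1.98 to 2.22) were set against the posterior plate, and with plain CPM 0 of these 3 pairs were called.

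From the pacemaker field to the node the 3 genes differed widely in ratio. MYOCD was 52.3-fold higher in the node (37.0 to 76.3), MEF2C 6.01-fold (5.39 to 6.72) and HAND2 1.46-fold (1.40 to 1.53). MYOCD and MEF2C were called in this pair, as were 23.9% of expressed genes between these libraries. Across the same step SRF went from 37.3 to 100.5 CPM and MEF2A from 31.5 to 228 CPM, while MKL1 went from 41.2 to 37.3 CPM and MKL2 from 48.7 to 29.7 CPM.

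MEF2A was called higher in the heart than in all mesoderm libraries, unlike MEF2C, at 190 to 228 CPM against 28.1 to 31.6 CPM. Its mesoderm levels were flat where those of MEF2C were not: the log2 ratio of anterior to posterior plate was 0.17 for MEF2A and 2.60 for MEF2C. Of 10 genes of the list of histone deacetylases and other regulators of MEF2 and SRF, 3 were called higher in the heart (5.62% of all expressed genes) and none lower. These were HDAC9, at 42.5 to 95.8 CPM against 5.75 to 8.21 CPM, FHL2, and CSRP3, the muscle LIM protein. HDAC4, HDAC7 and CABIN1, a calcineurin-binding repressor of MEF2, differed little, with log2 ratios of 0.40, -0.32 and -0.25.

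Genes known as targets of SRF and MEF2 factors differed between heart and mesoderm, many by more than the regulators themselves. Of 10 expressed MEF2-dependent muscle genes, 8 were called higher in the heart, where 5.62% of all expressed genes were, and none lower, with a median log2 ratio of 5.87. MYBPC3, a thick-filament protein, was at 909 to 1469 CPM against 0.405 to 2.54 CPM, and XIRP1 at 239 to 282 CPM against 0.487 to 1.40 CPM. The exceptions were MYOZ2, low in the node, and JUN, an immediate early gene, at 29.95 to 42.6 CPM in the heart and 44.4 to 65.6 CPM in the mesoderm. Of 12 SRF-site contractile genes, 6 were called higher and none lower (median 2.12), against the same 5.62%. ACTC1 had the widest gap of this list, 239-fold from junction to pacemaker field (220 to 260). TNNT2, cardiac troponin T, was already at 297 to 694 CPM in the mesoderm against 6218 to 7583 CPM in the heart. These lists hold many of the genes by which heart muscle is recognised, so their direction between heart and mesoderm only describes these libraries. A link to MYOCD, MEF2C or HAND2 was not tested.

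The sharpest contrast within HH 8 was along the plate. MYOCD was 14.5-fold higher in the anterior than in the posterior plate (7.91 to 29.7), MEF2C 6.62-fold (5.40 to 8.17) and HAND2 1.75-fold (1.65 to 1.85). MYOCD and MEF2C were called, as were 0.905% of 9056 expressed genes in that direction, with 1.04% lower (1.94% in all). Ranked by log2 ratio of anterior over posterior, MYOCD was 5 of 9056 and MEF2C 6, and HAND2, which was not called, was 152. The named genes that ranked higher, given here after their values were seen, were TBX5 and NKX2-5, transcription factors of the heart field, and LOC417741, and the first place went to a gene with an identifier only.

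**Figure D4:**
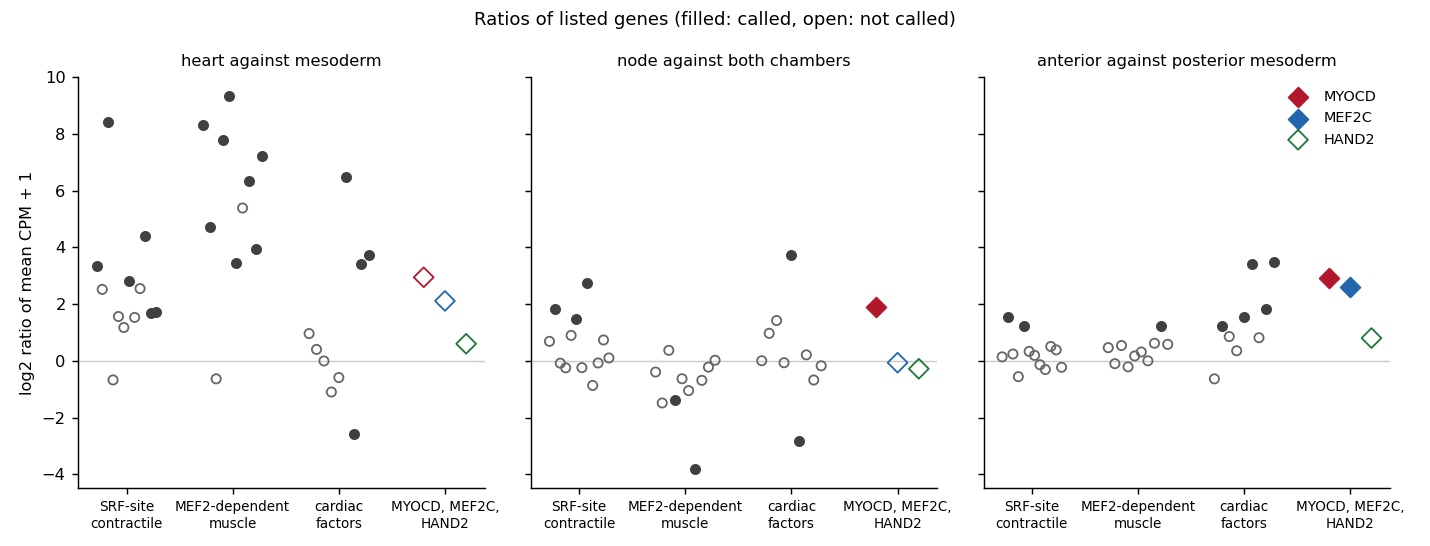
Log2 ratio of mean CPM + 1 for the measured genes of 3 lists and for MYOCD, MEF2C and HAND2 in 3 comparisons; each point is 1 gene, filled where called and open where not. In the comparison of anterior with posterior plate MYOCD (2.92) and MEF2C (2.60) lie among the called heart factors, while the SRF-site and MEF2-dependent genes, with 2 and 1 called, lie nearer 0.

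The anterior plate was also apart from its other neighbours. It exceeded the pacemaker field 7.69-fold for MYOCD (5.25 to 11.6) and 2.90-fold for MEF2C (2.56 to 3.29), 2 calls in a pair with 0.656% of genes called. It exceeded the left plate 10.3-fold for MYOCD (6.63 to 16.7) and 3.48-fold for MEF2C (3.04 to 3.99), in a pair with 1.38% called. The remaining mesoderm call was MEF2C between pacemaker field and posterior plate, at 2.28-fold (1.84 to 2.84), where 1.01% of genes were called. MEF2C between left and posterior plate, at 1.90-fold (1.52 to 2.39), lay just inside the threshold, in a pair with 1.88% called. Field and left plate gave no call for any of the 3, in a pair with 0.542% of genes called.

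Other heart factors followed the same direction along the plate. Of 8 expressed cardiac transcription factors that act with the members, 5 were called higher in the anterior plate (0.905% of all expressed genes) and none lower, with a median log2 ratio of 1.38 against 0.00 over all genes. Like the other lists, this list was chosen with earlier results of these data known, so its count is not independent support. TBX5 was at 110 against 8.92 CPM, NKX2-5 at 16.9 against 0.686 CPM, TBX20 at 20.2 against 4.98 CPM and ISL1, a factor of the second heart field and pacemaker, at 14.7 against 4.38 CPM. GATA4 was at 112 against 47.7 CPM, 2.34-fold (2.12 to 2.59), whereas GATA5 and GATA6, at 1242 against 685 and 178 against 139 CPM, were not called. SRF, MKL1 and MKL2 were at 47.3, 45.7 and 31.5 CPM in the anterior and 36.7, 44.4 and 34.9 CPM in the posterior plate. None of these 3 was called.

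Of 10 expressed SRF-site genes 2 were called higher in the anterior plate, where 0.905% of all expressed genes were, ACTA2 at 89.0 against 30.0 CPM and CALD1, the actin-binding caldesmon, at 40.6 against 16.6 CPM, with a list median of 0.22. ACTC1, at 24.1 and 20.2 CPM, and TAGLN, at 1.40 and 0.686 CPM, were not. Of the MEF2-dependent genes only 2 reached 5 CPM there, and TNNT2 was called at 694 against 297 CPM, 2.33-fold (2.24 to 2.43), while JUN was not. Heart muscle markers summed to 1236 CPM in the anterior plate against 706 to 912 CPM in the other 3 mesoderm libraries, and 3 of 5 expressed were called higher in the anterior than in the posterior plate. TNNT2 is also 1 of these 3. With ATP2A2, at 281 CPM in the anterior and 206 CPM in the posterior plate, it made up most of both sums. The part of these markers in the MYOCD and MEF2C values was not tested. The endothelial sum was flat over the mesoderm, at 123 to 143 CPM, with the anterior plate lowest.

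HAND2 also works outside the heart, and genes of its limb and pharyngeal arch networks were examined. SHH, which HAND2 activates in the limb bud, was at 32.3 to 41.4 CPM in the mesoderm and at 0.0718 to 0.347 CPM in the heart, where it was called lower. It was the only gene called among 7 expressed ones of this list, where 2.53% of all expressed genes were lower. The 5 endoderm and liver-type markers summed to 671 to 876 CPM in the mesoderm libraries. In the heart their sum was 1500 CPM in the node, 636 in the atrium, 436 in the junction and 98.4 in the ventricle. Which cells held the SHH reads, and any link to HAND2, was not tested. DLX5, an arch factor linked with HAND2 downstream of endothelin, was at 13.5 CPM in the posterior and 5.94 CPM in the anterior plate, the reverse of HAND2, and was called lower in the anterior plate. No other of the 6 genes of the list expressed there was called, and 1.04% of all expressed genes were lower. GLI3, the hedgehog-pathway repressor that opposes HAND2 in the limb bud, was at 66.7 to 84.6 CPM in all 8 libraries. GREM1, a BMP antagonist of the limb bud, stayed at or under 2.47 CPM and GSC at or under 1.45 CPM. EDN1, the endothelin ligand upstream of HAND2 in the arches, was at 6.61 CPM in the node and 0.608 CPM in the junction. PRRX1, a limb mesenchyme factor, was at 52.6 to 88.0 CPM in the mesoderm, 23.2 CPM in the node, 6.93 CPM in the atrium, 32.7 CPM in the junction and 1.09 CPM in the ventricle, a spread that HAND2 did not have. Of 5 expressed genes of the list, 2 were called higher in the node than in both chambers (3.11% of all expressed genes), TBX3 and PRRX1. Of 4 expressed between the chambers, 3 were called higher in the atrium (4.3% of all), TBX2, TBX3 and PRRX1. None was called lower in either comparison.

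The genes whose profiles were nearest to each member were found by the root mean square difference of log2(CPM + 1), each profile centred on its own mean over the 8 libraries, among 4673 other genes with a symbol and at least 10 CPM in 1 library. For MYOCD the nearest were STEAP3 (0.68 log2 units), MEF2C (0.77), ATP2A2, the calcium pump of the sarcoplasmic reticulum (0.80), and ACTA2 (0.82), where the median over all genes was 1.93. For MEF2C they were STEAP3 (0.40), DPF3, a chromatin-remodelling subunit of heart and muscle (0.50), DAB2 (0.52) and KCNH2, a delayed rectifier potassium channel (0.56), with MYOCD at rank 85. STEAP3, DPF3, DAB2 and KCNH2 passed the filter of 10 CPM only through the heart libraries, where MEF2C was high. In the mesoderm they stayed at or under 7.86 CPM. STEAP3, a metalloreductase, was at 11.6 to 22.8 CPM in the heart and 4.46 CPM in the anterior plate against 0.772 to 1.62 CPM in the rest of the mesoderm. The profiles of MYOCD and MEF2C had spreads of 1.90 and 1.39 log2 units, which is the distance to a gene without any change. The medians over all genes, 1.93 and 1.42, lay close to that. Among the genes nearest to HAND2 were ACBD6, PDLIM1 and RAB11FIP4 (0.16 to 0.18), and MEF2C and MYOCD were farther from it than most genes, at ranks 4210 and 4508 of 4673. Its own profile had a spread of 0.40 log2 units only, so genes with little change lay near it.

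Within the 4 heart libraries the neighbours were others. MYOCD there was nearest to SKAP2, an adaptor protein (0.17), NEURL1B (0.20), FAH, an enzyme of tyrosine breakdown (0.21), and TTR, transthyretin (0.22). These 4 shared the high node level, but SKAP2, FAH and TTR were higher in the mesoderm, where MYOCD was low. FAH and TTR are genes of liver-type tissue and were at 7.26 and 4.67 CPM in the node. In the other heart libraries FAH was at 0.434 to 0.892 CPM and TTR at 0 to 0.137 CPM. At such levels the distance depends on the 1 CPM added before the log. Both passed the filter of 10 CPM only through the mesoderm. MEF2C was nearest to PAPPA, LHFPL2, MLIP and SPSB4 (0.07 to 0.10), where the median over all genes was 0.42. HAND2 was nearest to BRD7, BRF1, NDUFS8 and CDCA9 (0.02), where the median was 0.26. The heart profile of HAND2 had a spread of 0.14 log2 units only, so genes with little change lay near it. SPSB4 and CDCA9 also passed the filter of 10 CPM only through the mesoderm. MLIP passed it only through the atrium, at 14.5 CPM, where MEF2C was highest. MEF2C, at rank 2 for MYOCD over the 8 libraries, was at rank 1713 over the heart libraries.

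In the coordinates of the tables, for which no build is given in the sources used here, MYOCD lies on chromosome 18 from 756054 to 789391 (minus strand), MEF2C on chromosome Z from 59130461 to 59246544 (plus strand) and HAND2 on chromosome 4 from 44835553 to 44939186 (minus strand). No other listed gene overlaps any of them. The row of HAND2 covers 103634 bases, and whether only exons were counted is not given, so a transcript not listed within that span could add to its count. The row of MYOCD covers 33338 bases, and reads from any exon outside it would be missing from its count.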

How the data were processed

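RNA of 8 pooled chick tissues was sequenced with paired reads of 36 bases, per the labels' protocols. The submitters' processing notes name TopHat and Bowtie and no version. The build, the annotation, how reads were counted and whether strand was used are not given in the sources used here. Per the file headers, the deposited tables hold CPM of the named library and raw read counts of another library, so columns were matched by the name in the header. Deposited counts existed for 7 libraries and gave back the deposited CPM to within 4.9e-11 CPM. For the posterior mesoderm they were worked back from CPM, where 100% of values were whole reads within 0.01.

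Counts were scaled with TMM factors (edgeR 4.0.16, R 4.3.3) between 0.848 (atrium) and 1.18 (left mesoderm). Alternatives were plain CPM, size factors of DESeq2 1.42.0, other pseudocounts, minimum levels and thresholds, and leaving out libraries. Intervals were exact Poisson and Clopper-Pearson intervals (scipy 1.17.1), and they cover counting error only. PCR copies are not independent molecules, so the intervals may be too narrow even for counting error.

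Names were matched to chicken RefSeq (GRCg7b), used for names and gene order only: 7592 current symbols, 679 older symbols and 19 protein entry names such as ACTA for ACTA2, the last kinds needing at least 2 shared neighbours within 10 genes. The 8 gene lists held 103 entries, of which 60 were measured, and the 7 marker lists 66, of which 46 were. The 3 somite markers found summed to 0.216 to 6.25 CPM, and 6 neural crest markers to 75.2 to 399 CPM, with SOX10 at or under 0.347 CPM. The rule for named genes took all measured members of the MEF2, myocardin and HAND lists, up to 4 called genes of each other list or its 2 most abundant, and the 4 nearest profiles, of which 1 is not reported here; further list members and the anterior ranking were added after their values were seen. The members and lists were chosen with earlier results of these data known.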

Additional observations from a re-analysis of the deposited data

How the results depend on the processing

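Of 129 comparisons of the 3 genes repeated under the alternatives, 123 kept their status as called or not called and 6 became called, and no called ratio changed sign. The changes of minimum level could not alter these outcomes, since the higher libraries held more than 10 CPM. The threshold of 1.5-fold could only add calls, and so could leaving out a library. Most of the ratios were not called in the main setting, so 123 of 129 is not a measure of robustness. The uncalled ratio of MEF2C between node and chambers, -0.06, was 0.13 with plain CPM and 0.42 without the atrium. The 6 that became called were MYOCD and MEF2C between heart and mesoderm at 1.5-fold and without the anterior mesoderm, MEF2C between the chambers at 1.5-fold and HAND2 along the plate at 1.5-fold. With plain CPM the pairs called for HAND2 went from 3 to 0, with 3 of its 8 libraries at another rank, and those for MEF2C from 18 to 17, node over anterior mesoderm no longer being called. Counts of called genes at 1.5-fold were 1586 for heart against mesoderm, 1058 for the node, 1982 between the chambers, 380 for the junction and 626 along the plate, and with no minimum level 279 along the plate. Leaving out 1 reference library gave 722 to 1130 called genes for the node in place of 447, and 216 to 355 for the junction in place of 133. Leaving out 1 library between heart and mesoderm gave 881 to 995 in place of 852. Of the 4 nearest profiles of each gene, 0 were shared between 8 libraries and the 4 heart libraries. No paired analysis was possible because each tissue has 1 library. Depth limits MYOCD in the mesoderm, where it had 11 to 33 counts outside the anterior plate.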
